A study of Mus musculus with 9 samples.

Results

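The genes described here encode the machinery that shortens poly(A) tails, removes the cap and degrades the mRNA body, together with cofactors through which tristetraprolin (TTP) and microRNAs reach it. Members were taken by gene symbol from a fixed list of 48 genes, and all 48 were found among the 16921 genes of the RiboSeq table. RiboSeq sequences the fragments that translating ribosomes protect from nuclease, so that a level here stands for ribosomes on an mRNA and not for the mRNA alone. The study compared bone marrow-derived macrophages from mice that lack TTP, which were immortalized with hcmyc and hRasG12V and then transduced with a doxycycline-inducible vector for GFP, GFP-TTP or GFP-TTP-AA. In TTP-AA the serines that the kinase MK2 phosphorylates are replaced by alanines. All 3 lines lacked endogenous TTP, and all received doxycycline at 1 μg/ml for 6 h in total and LPS, a bacterial activator of macrophages, at 1 μg/ml for 1 h. The lines are called GFP, TTP and TTP-AA cells below. Each was transduced separately, and nothing in the sources says that its 3 libraries came from independent transductions. Differences between lines that predate the construct therefore cannot be told apart from its effect.

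TTP is an RNA-binding protein that recognises AU-rich elements in the 3′UTRs of cytokine and other short-lived mRNAs and recruits the CCR4-NOT deadenylase to them. CCR4-NOT and PAN2-PAN3 remove the poly(A) tail, after which the LSM1-7 ring and its partners stimulate decapping by DCP2 and XRN1 digests the body from the 5′ end, while the RNA exosome can digest it from the 3′ end. In macrophages this route limits the output of inflammatory mRNAs after LPS, and phosphorylation of TTP by MK2 is known to weaken its hold on deadenylases.

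The deposited values were found to be fitted by the authors' model and to carry no spread between replicates. For any gene the values of a line followed replicates 1, 2 and 3 in nearly the same ratio as in every other line, and the distance between them was a fitted replicate-number term and not an error. Where values of lines are said below to overlap or not, this restates whether the fitted difference between lines exceeds that term, and it is no separation between replicates. No difference below could be tested against replicate error. The error given is the counting standard error (SE) of a ratio of the summed fitted reads. It is a lower limit for an unshrunken ratio, as it leaves out variation between cultures and as PCR copies are not independent molecules. The differences themselves are shrunken toward 0 by the same model, most of all at low levels. For genes with few reads, a difference within its counting SEs of 0 may therefore reflect the shrinkage. Values are fitted reads divided by the library's size factor, a level is their geometric mean over the 3 libraries of a line, and a difference is given on the log2 scale. A difference of at least 0.5 on log2 in either direction was counted, and the count was set beside the share of all 10102 genes with a mean of at least 10 that passed the same mark.

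Library sums of the fitted values ran from 2570292 to 12804501, with size factors between 0.415 and 2.14. A member had between 81.8 and 19064 fitted reads per line. Zfp36, which encodes TTP and to which reads on the constructs also count, had levels of 460.1 in GFP, 929 in TTP and 1529 in TTP-AA cells. Which part of the disrupted gene still gave reads in GFP cells was not analysed here. All 8 macrophage markers in the table were present, at levels between 2463 and 60756, and their sum was 99514 in GFP, 80300.3 in TTP and 111743 in TTP-AA cells. Lyz2 made up most of that sum, and Emr1 (3672, 2295 and 5319 in GFP, TTP and TTP-AA cells), Csf1r, Cd68 and Spi1 had the same order of lines. The other markers did not, as Ptprc was highest in TTP cells (4124, beside 3339 in GFP and 3021 in TTP-AA). Itgam was at 2975, 3194 and 3176, and Cd14 at 9561, 10310 and 11868. The part of these marker differences in the results was not tested. No marker of T cells, B cells, fibroblasts, epithelial cells, endothelial cells or neutrophils reached a mean of 10, and the highest was at 3.82.

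As a group, the decay machinery differed between the lines about as often as genes in general. In these bulk libraries, fewer cells of a kind and fewer footprints per cell cannot be told apart. All 48 members had a mean of at least 10, and 41 of them differed by less than 0.5 on log2 in each of the 3 comparisons. The other 7 (14.6%) passed the mark in at least 1 comparison, as did 14.5% of all kept genes. The members that passed the mark were the adaptors Btg1, Tob1 and Btg2, the exonuclease Xrn1, the translational repressor Gigyf2, the poly(A)-binding protein Pabpc1 and the exosome subunit Exosc2.

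Between TTP-AA and TTP cells, 1 member (Btg1, 2.08% of the list) was higher by at least 0.5 in TTP-AA, where 5.93% of all kept genes were, and 3 members (Pabpc1, Gigyf2 and Xrn1, 6.25%) were lower, where 4.83% were. Between TTP and GFP cells, 1 member (Exosc2) was higher in TTP, with 1.57% of all kept genes, and 1 (Btg2) was lower, with 2.72%. Between TTP-AA and GFP cells, Btg1 was the only member higher, with 3.41% of all kept genes, and Tob1 the only member lower, with 2.65%. At 1 to 3 of 48 members each, these counts are too small to set the members apart from other genes. The median over the members was -0.05 for TTP-AA against TTP, and it was 0.00 in both comparisons with GFP cells. The 3 comparisons share libraries, so that a member which stood apart in a single line appears in 2 of them.

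**Figure D1:**
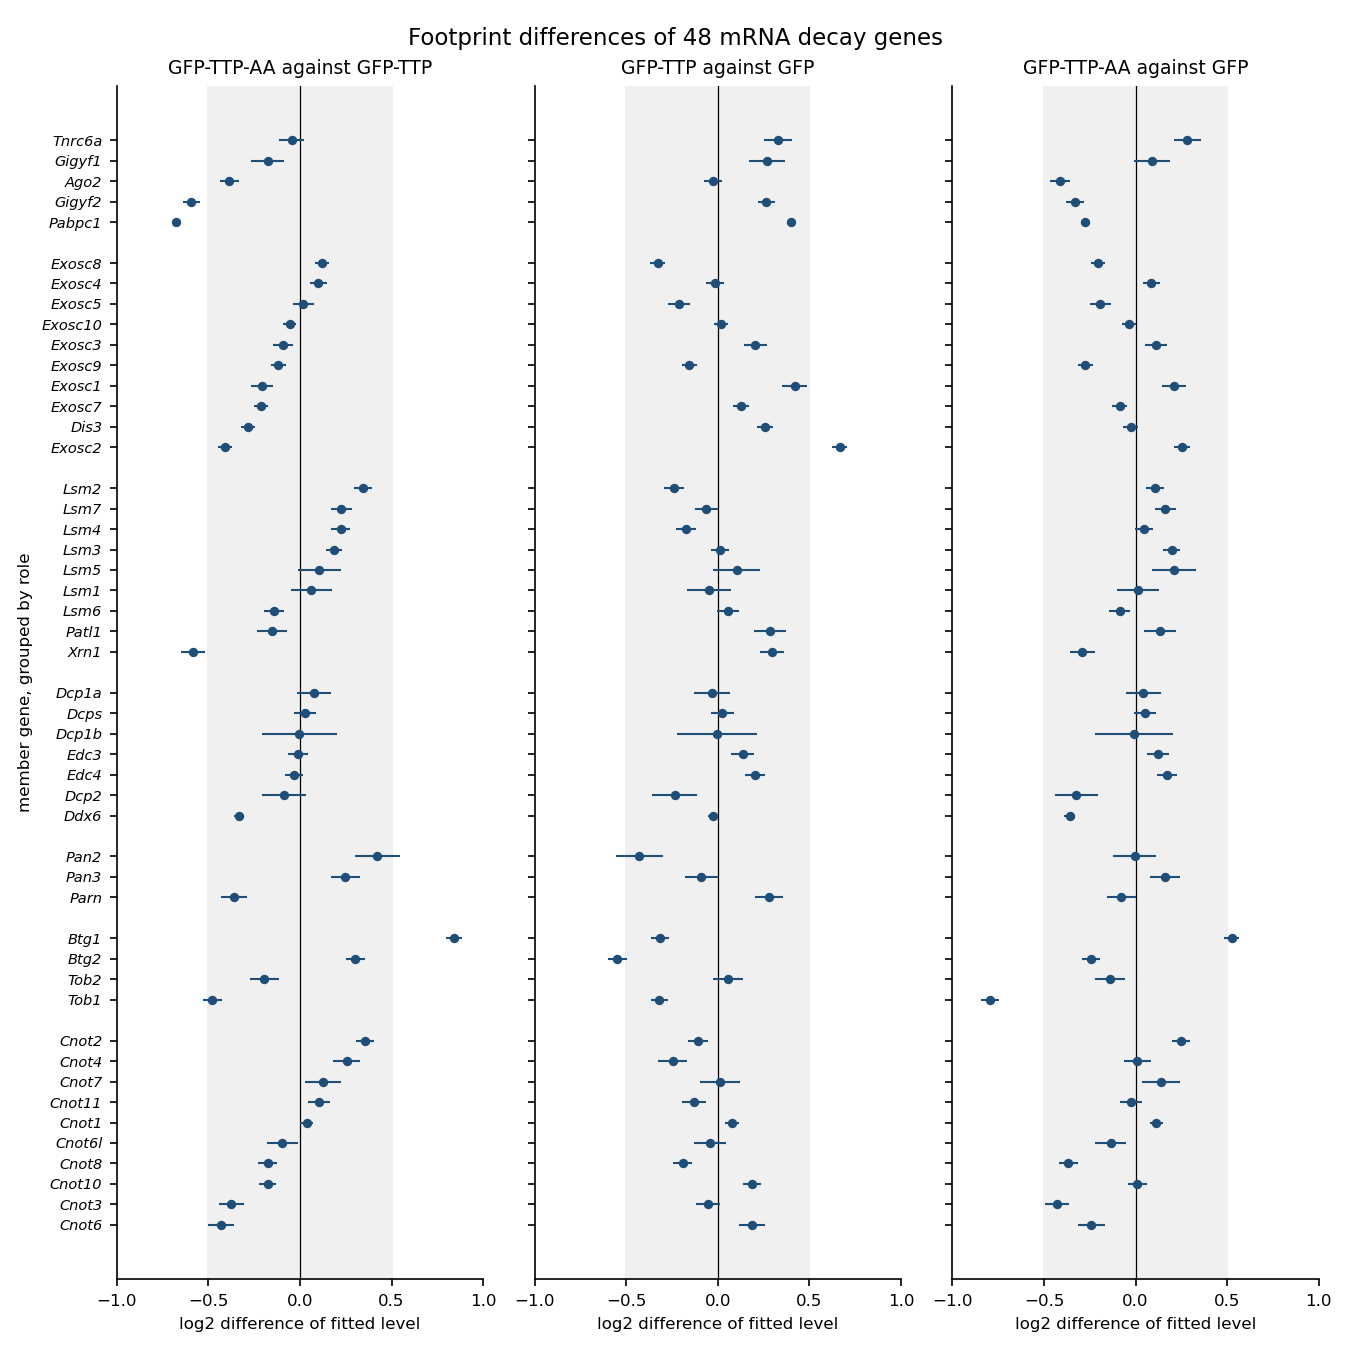
Log2 difference of the fitted level of each of the 48 members in the 3 comparisons, with members grouped by role and ordered within a group by the first comparison. Bars are the counting SE, a lower limit of the error of an unshrunken ratio. The grey band marks differences of less than 0.5, which holds 44 members in the left panel and 46 in each of the others.

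The members differed in the sequence that TTP is known to bind. The 7-base motif TATTTAT was searched on the sense strand of the longest annotated 3′UTR (GENCODE vM21, GRCm38) and found in 15 of 48 members (31.3%), where 30.7% of the 9940 kept genes with a 3′UTR held it. Of the members past the mark, Btg2 and Xrn1 held it, and Btg1, Tob1, Gigyf2, Pabpc1 and Exosc2 did not. The sites of these genes are printed with those of Ago2, Cnot6l and Edc3 in which the motif has a T on either side, the fuller form of the element. Capitals mark the motif, and each sequence is written 5′ to 3′ along the transcript.
Btg2, chr1:134077252-134077274, minus strand: tgaagagcTATTTATacatgttt
Xrn1, chr9:96055256-96055278, plus strand: agaaaagtTATTTATttgattaa
Ago2, chr15:73105736-73105758, minus strand: atggaattTATTTATtcttccat
Ago2, chr15:73097842-73097864, minus strand: atacttttTATTTATtttgtgcc
Cnot6l, chr5:96071164-96071186, minus strand: gaagagatTATTTATttttgttt
Edc3, chr9:57750556-57750578, plus strand: ttctagctTATTTATtggcttgc

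The Btg2 site began 103 bases after the stop codon and lacked the flanking T on both sides, whereas the Xrn1 site lay 2455 bases after the stop codon and had both. Ago2 held the most copies, 5 in a 3′UTR of 11064 bases. Members with the motif had a median difference of -0.10 in TTP-AA against TTP, with 11 of 15 below 0, and members without it one of -0.03, with 17 of 33 below 0. Over all kept genes these medians were -0.05 with the motif and 0.02 without it, with 1731 of 3056 and 3312 of 6884 below 0. Against GFP cells the members' medians in TTP-AA were -0.14 with the motif and 0.05 without it, and those of all kept genes were -0.07 and 0.02. Members with the motif had longer 3′UTRs, with a median of 3346 bases against 869, and the part of this length in the medians was not tested. The 5-base core ATTTA was found in 33 of 48 members (68.8%) and in 70.8% of the kept genes. For this shorter motif the medians of members in TTP-AA against GFP cells hardly parted, at -0.01 with it and 0.01 without it, and in TTP-AA against TTP they were -0.09 and 0.02. A match describes the annotated sequence and is not a measured binding site.

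The TOB and BTG family held the widest differences among the members. Its proteins bind the CNOT7 and CNOT8 nucleases and bring CCR4-NOT to mRNAs, and they restrain proliferation. Of the 4 members, 3 passed the mark in at least 1 comparison, in different lines and directions, and Tob2 passed it in none. With 14.5% of all kept genes past the mark in any comparison, a count over 4 genes is a description and was not tested.

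Btg1 (chr10:96617006-96622809) had values of 517, 750.4 and 672 in GFP, 415, 602 and 539 in TTP and 748, 1077 and 964 in TTP-AA cells. Its values in TTP-AA lay above all those in TTP, and those in GFP cells reached only the lowest of them. The level in TTP-AA was 1.79 times that in TTP, a log2 difference of 0.84 ± 0.04 (counting SE), which was the highest of the 48 members. Against GFP cells it was 0.52 ± 0.04 in TTP-AA and -0.32 ± 0.05 in TTP. Kept genes of chromosome 10 had a median of 0.16 in the comparison of TTP-AA with TTP, and Btg1 stood 0.68 above it. With the chromosome's median subtracted, the difference between TTP-AA and GFP cells was 0.498 and no longer reached the mark.

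Tob1 (chr11:94211454-94215495) was lowest in TTP-AA cells, where Btg1 was highest, while both were lower in TTP than in GFP cells. It had values of 726, 869 and 503 in GFP, 582, 696 and 404 in TTP and 420.1, 499 and 289 in TTP-AA cells. Values in TTP-AA lay below all those in GFP cells, and those in TTP lay between and overlapped both. The level in GFP cells was 1.74 times that in TTP-AA, with a log2 difference of -0.80 ± 0.05 for TTP-AA against GFP. This was the lowest value of any member in any comparison. The difference of TTP-AA from TTP was -0.48 ± 0.05 and was just short of the mark, and that of TTP from GFP cells was -0.32 ± 0.05. With the medians of chromosome 11 subtracted, Tob1 was at -0.71 in TTP-AA against GFP. It was then at -0.36 in TTP-AA against TTP and at -0.35 in TTP against GFP.

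Btg2 (chr1:134075170-134079120), an immediate-early gene that p53 is known to induce, had values of 671, 607 and 261 in GFP, 459, 415 and 179 in TTP and 569, 511 and 219.8 in TTP-AA cells. Replicate 3 was far below replicates 1 and 2 in each line, and the ranges of all 3 lines overlapped. The level in TTP was lower than in GFP cells by a log2 difference of -0.55 ± 0.05, and that in TTP-AA lay in between, at 0.30 ± 0.05 against TTP. Its replicate-number term, with replicate 3 at -1.36 relative to replicate 1, was the widest of the 48 members and exceeded the difference between lines. Tob2 had levels of 199.7, 207 and 181 in GFP, TTP and TTP-AA cells.

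The balance within the family shifted with these values. Per coding length, the level of Tob1 was 3.26 times that of Tob2 in GFP, 2.51 times in TTP and 2.06 times in TTP-AA cells. The level of Btg1 per coding length was 1.25, 1.46 and 2.12 times that of Btg2 in the same order. Btg1 stood at 1245, 999 and 1791 fitted reads per kb of coding length in the 3 lines, and Tob1 at 628, 504 and 362.

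**Figure D2:**
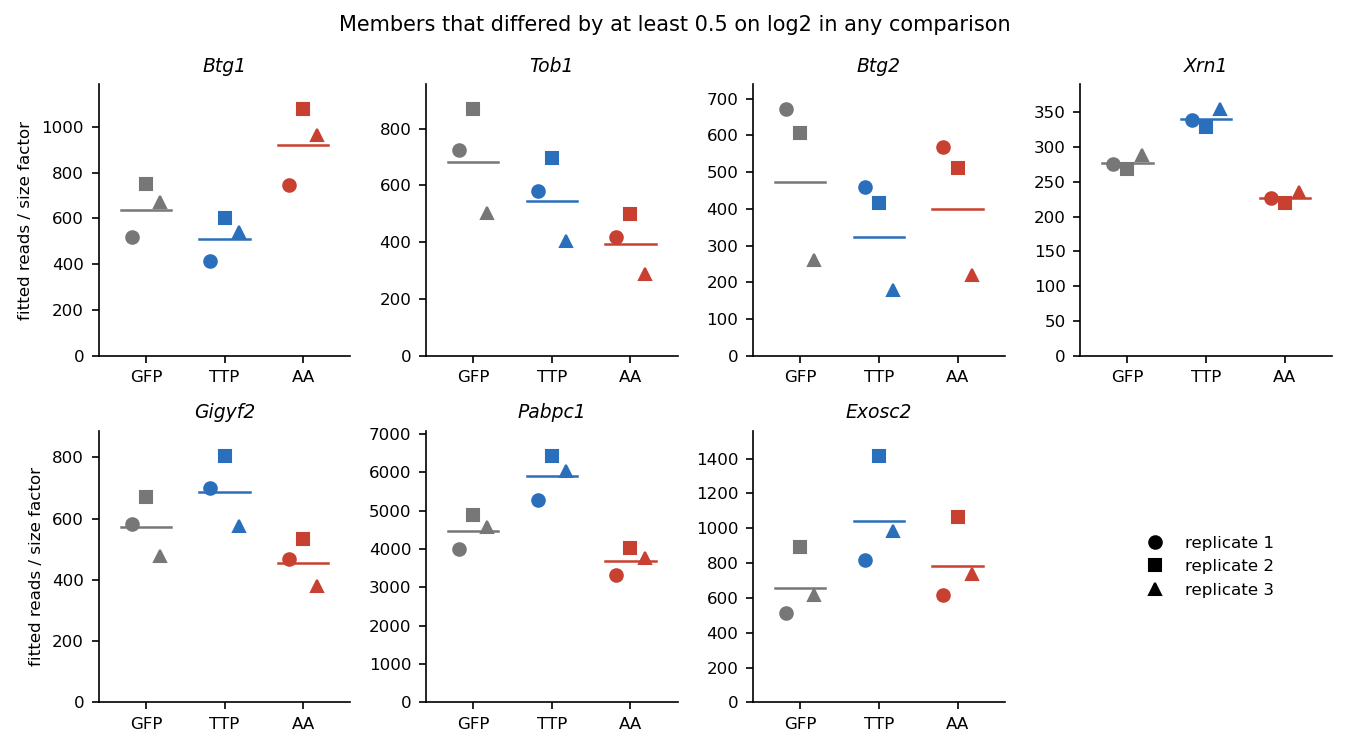
Fitted reads divided by the size factor for the 7 members that passed the mark in any comparison, with a point for each of the 9 libraries, shaped by replicate number, and a horizontal line at the level of each cell line (AA stands for TTP-AA). Each panel starts at 0. The order of the replicates is the same in every line because the values are fitted. Btg1 is highest and Tob1 lowest in TTP-AA, whereas Xrn1, Gigyf2 and Pabpc1 are highest in TTP and lowest in TTP-AA.

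None of the 10 members of the CCR4-NOT complex passed the mark in any comparison, where 14.5% of all kept genes did, and 10 genes are too few to read a difference from. They lay between -0.43 and 0.35 in TTP-AA against TTP, with 5 above and 5 below 0, between -0.25 and 0.19 in TTP against GFP cells, and between -0.43 and 0.25 in TTP-AA against GFP. Cnot1, the scaffold to which TTP binds, had levels of 858, 904 and 928 in GFP, TTP and TTP-AA cells, and none of its differences exceeded 0.11. It was the member of the complex with the most fitted reads.

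Cnot2, which with Cnot3 forms the NOT module, was the highest of the complex in TTP-AA against TTP. It had values of 439, 408 and 522 in GFP, 407, 379 and 485 in TTP and 523, 483 and 617 in TTP-AA cells. Ranges overlapped between all lines, and its difference of 0.35 ± 0.05 was 0.19 with the median of chromosome 10 subtracted. Cnot3 was at -0.37 ± 0.07 in the same comparison and at -0.43 ± 0.07 in TTP-AA against GFP cells, so that the partners of this module lay on opposite sides of 0. Its coding sequence shares 147 bases with exons of Leng1 on the other strand, and whether reads were counted by strand is not given in the sources used here.

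The catalytic subunits also lay on both sides. Cnot6, a deadenylase of the exonuclease-endonuclease-phosphatase type, was the lowest of the complex, with values of 232, 274 and 249.9 in GFP, 265, 312 and 285 in TTP and 198, 231 and 210.5 in TTP-AA cells. All 3 values in TTP-AA were below those in both other lines. The difference from TTP was -0.43 ± 0.07, and -0.32 with the median of chromosome 11 subtracted. Its paralog Cnot6l was at -0.10 ± 0.08. Cnot8, a DEDD-type deadenylase, stood at levels of 516, 453 and 401 in GFP, TTP and TTP-AA cells. It was at -0.37 ± 0.05 in TTP-AA against GFP, and at -0.28 with the median of chromosome 11 subtracted. Its paralog Cnot7 was at 0.14 ± 0.10 in that comparison. Per coding length the level of Cnot8 was 3.84 times that of Cnot7 over the 3 lines. Cnot4, a ubiquitin ligase that associates with the complex, was at 0.25 ± 0.07 in TTP-AA against TTP. Cnot10 and Cnot11, which form its N-terminal module, were at -0.18 ± 0.05 and 0.11 ± 0.06.

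The 3 members among the other deadenylases lay between -0.43 and 0.28 in TTP against GFP cells. They lay between -0.36 and 0.42 in TTP-AA against TTP, and between -0.08 and 0.16 in TTP-AA against GFP. Pan2, the nuclease of PAN2-PAN3, had values of 94.0, 71.7 and 94.2 in GFP, 69.9, 53.3 and 70.03 in TTP and 94.1, 71.3 and 93.5 in TTP-AA cells. Each value in TTP was below all those in the other lines, with differences of -0.43 ± 0.13 from GFP and 0.42 ± 0.12 for TTP-AA against TTP. With the chromosome 10 median subtracted, these were -0.31 and 0.26. Its adaptor Pan3 was at 0.25 ± 0.08 in the second of these comparisons.

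Parn, a nuclease that trims poly(A), had values of 189, 189 and 227 in GFP, 229, 230.2 and 276 in TTP and 179.8, 179 and 215 in TTP-AA cells. The values in TTP were above all those in both other lines. Its difference in TTP-AA against TTP was -0.36 ± 0.07. Kept genes of chromosome 16 had a median of 0.15 in this comparison, and with that subtracted Parn was at -0.51.

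No decapping factor passed the mark in any comparison, where 14.5% of all kept genes did, and 7 genes are too few to read a difference from. Of the 7 members, 6 lay within 2 counting SEs of 0 in TTP-AA against TTP, where 4381 of the 10102 kept genes did, and the exception was Ddx6. In TTP-AA against GFP cells 3 of 7 lay within 2 counting SEs of 0, where 5235 of the 10102 kept genes did. Ddx6 and Dcp2 were lower by over 0.3 in that comparison, where 11.1% of all kept genes were lower by at least 0.3. Dcp1a, a cofactor of the decapping enzyme, had values of 133, 136 and 133 in GFP, 130.5, 133 and 129.5 in TTP and 138, 139 and 136 in TTP-AA cells. All 9 values lay within a narrow range, and the difference of 0.07 ± 0.09 in TTP-AA against TTP was the highest of the group in that comparison. Dcp1b, its paralog and the least abundant member, had levels of 26.8, 26.7 and 26.7 and the smallest difference between lines of any member. Its counting SEs were 0.21 to 0.22, and the model shrinks differences most where reads are few. Its near-equal fitted levels therefore do not show that the lines were equal. Dcp2, the decapping enzyme, had levels of 96.4, 81.9 and 77.0 in GFP, TTP and TTP-AA cells, and was at -0.32 ± 0.12 in TTP-AA against GFP.

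Ddx6, the RNA helicase that links CCR4-NOT to decapping and translational repression, had values of 1524, 1829 and 1483 in GFP, 1495, 1795 and 1456 in TTP and 1193, 1421 and 1151 in TTP-AA cells. Values in TTP-AA were below all those in the other lines, which overlapped nearly completely. The difference was -0.33 ± 0.03 against TTP and -0.36 ± 0.03 against GFP cells. Among the scaffolds and enhancers, Edc3 and Edc4 were at 0.14 ± 0.06 and 0.20 ± 0.05 in TTP against GFP, and at -0.01 ± 0.06 and -0.03 ± 0.05 in TTP-AA against TTP. Dcps, which hydrolyses the cap left after 3′ decay, had differences of 0.02 to 0.05 in the 3 comparisons.

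Of the LSM1-7 ring, which binds shortened tails, 6 of 7 subunits were above 0 in TTP-AA against TTP. This was so for 4987 of the 10102 kept genes, and 7 subunits are too few to read a direction from. Lsm5 (0.11 ± 0.12) and Lsm1 lay within their counting SE of 0. Lsm2 was the highest, with values of 535, 439 and 506 in GFP, 453, 372 and 429 in TTP and 579, 471 and 543 in TTP-AA cells. Values in TTP-AA were above all those in TTP and overlapped those in GFP. Its difference between TTP-AA and TTP was 0.35 ± 0.05. Lsm7, Lsm4 and Lsm3 followed at 0.23 ± 0.06, 0.22 ± 0.05 and 0.19 ± 0.04, and Lsm6 was at -0.14 ± 0.06. For Lsm7, the value was 0.06 with the median of chromosome 10 subtracted. Lsm1, the subunit that sets this cytoplasmic ring apart from the nuclear LSM2-8 ring, was at 0.06 ± 0.11, with levels of 90.9, 87.9 and 91.7. Patl1, the protein that joins the ring to DCP2, was at 0.29 ± 0.09 in TTP against GFP cells, and at 0.11 with the median of chromosome 19 subtracted.

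Xrn1 (chr9:95954760-96057803), the 5′-to-3′ exonuclease that follows decapping, had values of 276, 268 and 289 in GFP, 338, 329 and 354 in TTP and 227, 219 and 235 in TTP-AA cells. The values were highest in TTP and lowest in TTP-AA cells, without overlap of the fitted ranges. The level was 340.2 in TTP and 227 in TTP-AA cells, a log2 difference of -0.58 ± 0.06 for TTP-AA against TTP. The replicate-number term of Xrn1 spanned 0.11 on log2, less than the difference between any pair of lines. Its coding sequence shares 199 and 75 bases with exons of the antisense transcripts C78334 and Gm16794.

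Exosome subunits were furthest apart in TTP against GFP cells, where the 10 members lay between -0.33 for Exosc8 and 0.67 for Exosc2, with an SD of 0.30 beside 0.26 for all kept genes. They lay between -0.41 and 0.12 in TTP-AA against TTP, with 7 of 10 below 0, where 5115 of the 10102 kept genes were. In TTP-AA against GFP cells they lay between -0.28 and 0.26. These 10 genes are too few to read a spread or a direction from. Exosc2 (chr2:31670715-31681349), a subunit of the exosome cap, had values of 515, 893 and 619 in GFP, 817, 1417 and 982 in TTP and 618, 1064 and 736 in TTP-AA cells. Replicate 2 was the highest in each line, and the ranges of the lines overlapped. The level in TTP was 1.59 times that in GFP cells, a log2 difference of 0.67 ± 0.04, and the replicate-number term spanned 0.79. Its coding sequence shares 54 bases with the antisense transcript Gm13427.

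Exosc8, a ring subunit, was the highest of the group in TTP-AA against TTP, at 0.12 ± 0.04. It had values of 924, 720.1 and 885 in GFP, 736, 574 and 706 in TTP and 805, 622 and 764 in TTP-AA cells. Ranges overlapped between all lines. In TTP against GFP cells it was at -0.33 ± 0.04, and at -0.15 with the chromosome 3 median subtracted. Exosc1, another cap subunit, was at 0.42 ± 0.07 in that comparison, and at 0.24 with the chromosome 19 median subtracted. Of the nucleases that work with the exosome, Dis3 was at -0.28 ± 0.04 and Exosc10 at -0.06 ± 0.04 in TTP-AA against TTP.

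The cofactors outside these complexes lay below 0 in TTP-AA against TTP in 5 of 5 cases, with a median of -0.39, where 5115 of the 10102 kept genes lay below 0. In TTP against GFP cells 4 of 5 were above 0, with a median of 0.27, where 5066 of the kept genes were above 0. In TTP-AA against GFP cells 2 of 5 were, with a median of -0.28, where 4984 of the kept genes were. In TTP-AA against TTP, 2 of the 5 lay within 2 counting SEs of 0, where 4381 of the 10102 kept genes did. A list of 5 genes is too short to read a direction from in any of the comparisons. Gigyf2 (chr1:87326998-87450796) encodes a protein that binds proline-rich motifs of TTP and, with the cap-binding protein 4EHP, represses translation. It had values of 583, 670.3 and 479 in GFP, 701, 806 and 575 in TTP and 467, 533 and 379.9 in TTP-AA cells. The values in TTP-AA were below all those in TTP, and GFP cells overlapped both. The level in TTP was 1.51 times that in TTP-AA, a log2 difference of -0.59 ± 0.05 for TTP-AA against TTP. Gigyf1, its paralog, was at -0.18 ± 0.09. Per coding length, the level of Gigyf2 was 3.78 times that of Gigyf1 in GFP, 3.77 times in TTP and 2.82 times in TTP-AA cells.

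Pabpc1 (chr15:36595661-36609668), the cytoplasmic protein that coats poly(A) tails, was the member with the most footprints. It had values of 4009.6, 4885 and 4575 in GFP, 5284, 6438 and 6030.1 in TTP and 3328, 4023 and 3763 in TTP-AA cells. The values in TTP were above all those of both other lines, which overlapped slightly. The level was 5898 in TTP and 3693 in TTP-AA cells, and the log2 difference of -0.68 ± 0.02 for TTP-AA against TTP was the lowest of the 48 members. With the median of chromosome 15 subtracted it was -0.58. Pabpc1 has close paralogs, and the alignment allowed 2 positions for a read, so that its counts are less certain than those of unique genes.

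Ago2, the microRNA-binding nuclease, was lower in TTP-AA than in either other line, at -0.39 ± 0.05 against TTP and -0.41 ± 0.05 against GFP cells. With the medians of chromosome 15 subtracted, these were -0.29 and -0.34. Tnrc6a, the scaffold that joins AGO2 to CCR4-NOT, had values of 192, 204 and 210.5 in GFP, 241, 256 and 264 in TTP and 235, 248 and 255 in TTP-AA cells. Its values in GFP cells were below all others, and those of the TTP lines overlapped. The difference from GFP was 0.33 ± 0.08 in TTP and 0.28 ± 0.07 in TTP-AA. The coding sequence of Tnrc6a shares 143 bases with exons of Gm45846 on the same strand.

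Footprint density, the level per kb of coding length, was compared between the mRNAs of the subunits of a complex. As RNASeq was not analysed here, the amount of an mRNA and the ribosomes per mRNA cannot be told apart in it. The median kept gene had a density of 147, and 32 of the 48 members were above it. Of the complexes compared here, the exosome core had the lowest ratio, with its 8 members between 421 for Exosc3 and 968 for Exosc2, a ratio of 2.30 between them. The CCR4-NOT members ranged from 95.2 for Cnot4 to 521 for Cnot8, a ratio of 5.47, and the other 9 members lay at or below 292. Within the LSM1-7 ring, 5 subunits lay between 1141 and 1834, whereas Lsm5 stood at 299 and Lsm1 at 227, so that the ring spanned a ratio of 8.09. Among decapping factors Ddx6 stood at 1024 and Dcp2 at 67.3. Pabpc1 had the highest density of all members, 2465, and Dcp1b the lowest, 15.5. These ratios depended on the annotated lengths. Over the whole exonic length they were 5.24 for the exosome core, 11.0 for CCR4-NOT and 15.6 for the LSM1-7 ring.

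**Figure D3:**
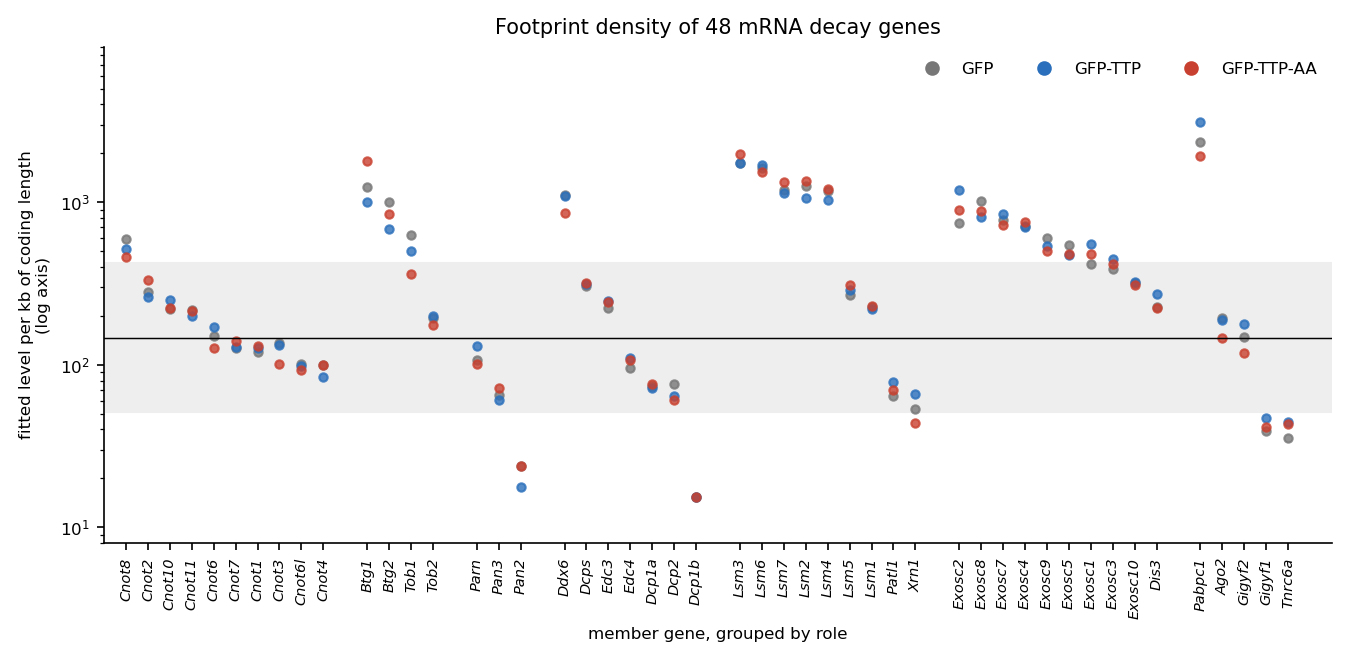
Fitted level per kb of coding length on a log axis for the 48 members, grouped by role and ordered by density, with a point for each line. The horizontal line is the median of 9968 kept genes with a coding length, at 147, and the grey band runs from their lower to their upper quartile, 51.5 to 422. Points of the 3 lines lie close together for most members, while Btg1, Tob1 and Pabpc1 are spread out.

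The differences between lines were of the size of those between replicate numbers. The 3 condition levels of a member spanned a median of 0.26 on log2, and the 3 replicate-number terms a median of 0.31. The replicate-number term was the wider for 25 of 48 members (52.1%), where it was for 53.6% of all kept genes. Among the members past the mark, the condition levels spanned more than the replicate-number terms for Btg1, Pabpc1, Xrn1 and Gigyf2, were nearly equal for Tob1 at 0.80 against 0.79, and spanned less for Btg2 and Exosc2. Cnot7 and Lsm5 had wide replicate-number terms, 0.76 and 0.87, and condition levels that spanned 0.14 and 0.21.

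**Figure D4:**
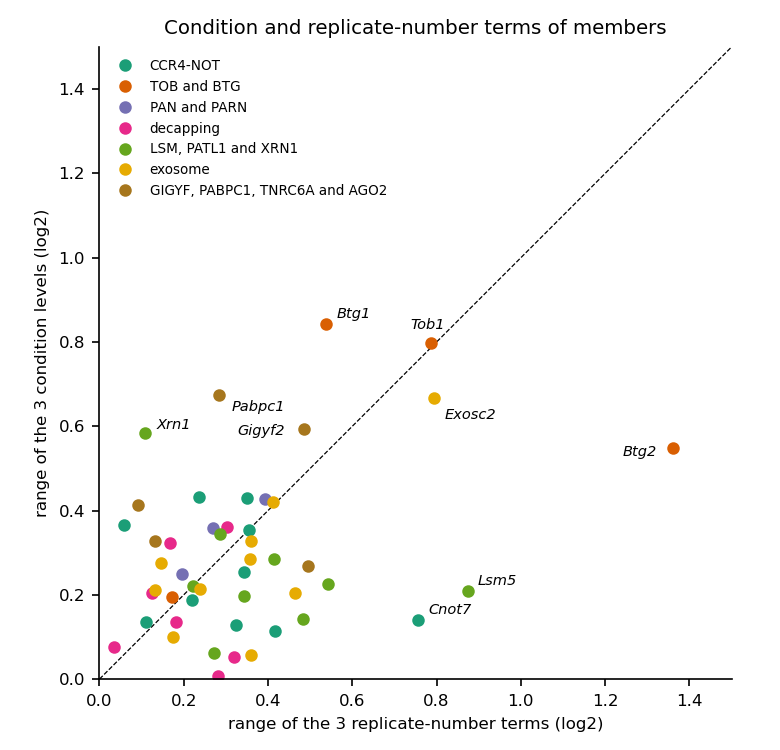
Range of the 3 condition levels against the range of the 3 replicate-number terms, both on log2, for each of the 48 members, coloured by role. The dashed line marks equal ranges, and 25 members lie below it. Xrn1 and Pabpc1 are farthest above the line and Btg2 farthest below it.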

How the data were processed

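RiboSeq was performed by the authors on 9 libraries, 3 for each line, with the ARTseq kit, size exclusion chromatography and rRNA depletion. The submitters' processing notes name Trim Galore, TopHat2 (2.0.12), HTSeq and DESeq2 (1.6.3) on GRCm38, and the methods state up to 2 alignments per read and a DESeq2 model of library date and condition.

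The deposited signal per gene and library, named as normalized counts, was checked on its values. Terms for condition and replicate number left an SD below 1e-12 of log2 values with an SD of 4.79, so that the values are fitted ones multiplied by size factors. The replicate number stands in for the library date, and no dates were used. The fitted mean of a member was 0.971 to 1.01 times the deposited base mean, a signal the authors averaged over all libraries. Columns of the authors' own comparisons (log2 fold changes, standard errors, statistics and p-values) were not used.

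Size factors were read from 5451 genes with a fitted mean under 2, for which the model leaves almost no difference between conditions, and are approximate. Genes with a mean of at least 10 were kept (10102 of 16921). The call was a difference of 0.5 on log2, without a test. Gene models were taken from GENCODE vM21 for 16836 identifiers. In these models, coding bases of 11 members overlap exons of other genes, and only some of these members are named above. The largest overlap with a single gene is 228 bases, in Dis3. Scripts used Python 3.11.15, numpy 2.4.6, pandas 2.3.3 and matplotlib 3.10.9, and were tested on simulated data.

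Members, other pathway genes and marker genes were chosen with earlier results of these data known. Values in every library are given for members past the mark and, in each role group, for those with the highest and lowest difference of TTP-AA against TTP at a mean of at least 50. Alternatives were other marks, scalings, filters, a pseudocount of 10 and subtraction of chromosome medians. RNASeq and iCLIP data were not analysed here.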

Additional observations from a re-analysis of the deposited data

How the results depend on the processing

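Because the values are fitted, leaving out a replicate number returned nearly the same differences by construction and says nothing about stability. No paired analysis was possible because the values carry no spread between replicates, and the limma fit with a replicate block was not run. With a mark of 0.3 on log2, 15 members were counted in TTP-AA against TTP, where 30.4% of all kept genes passed. Of these members, 5 (10.4% of the list) were higher, beside 15.4% of all kept genes, and 10 (20.8%) lower, beside 15.1%. The count was 9 in TTP against GFP, beside 17.8% of all kept genes, and 8 in TTP-AA against GFP cells, beside 21.6%. With a mark of 1 on log2 the count was 0 in each, beside 1.57%, 0.554% and 0.554% of all kept genes. Subtraction of chromosome medians left 1 of 2 members past the mark in TTP-AA against GFP cells, Tob1, as Btg1 came to 0.498. It raised the count in TTP-AA against TTP from 4 to 5, where 9.96% of all kept genes passed. Equal library sums, subtraction of the median of all kept genes, a pseudocount of 10, no filter, a mean of at least 50 and scaling by the median ratio over kept genes, which was chosen after seeing the data, kept every count of members past the mark. Densities over the whole exonic length spanned ratios of 11.0 for CCR4-NOT, 15.6 for LSM1-7 and 5.24 for the exosome core, against 5.47, 8.09 and 2.30 over coding length. The 5-base core ATTTA was found in 33 members, where the 7-base motif was in 15. The number of members whose replicate-number term was wider than their condition range, 25 with all libraries, was 15 to 19 when each replicate number was left out in turn, and fewer terms can only narrow that range. Depth limits the least abundant members most. The counting SE of Dcp1b, which rests on as few as 81.8 fitted reads per line, was 0.21, and the unmeasured variation between cultures comes on top of it.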

Other observations

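Other genes of the same decay steps, which were not among the 48 members, were described from a list of 47 symbols, of which 40 were in the table and all 40 had a mean of at least 10. In TTP-AA against TTP cells 2 of them (5%) were lower by at least 0.5 on log2, where 4.83% of all kept genes were. None was higher, where 5.93% of all kept genes were. The median was -0.15, with 30 of 40 below 0, where 5115 of the 10102 kept genes were. The median of all kept genes was 0.00 in that comparison. In TTP against GFP cells 1 (2.5%) was higher, beside 1.57% of all kept genes, and none was lower, beside 2.72%. The median was 0.10, with 31 of 40 above 0, where 5066 of the 10102 kept genes were. In TTP-AA against GFP cells 1 (2.5%) was lower, beside 2.65% of all kept genes, and none was higher, beside 3.41%. The median was -0.06. Without replicates in the values, none of these differences was tested.

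Skiv2l2, the helicase MTR4 of the nuclear exosome, had levels of 1733 in GFP, 2286 in TTP and 1447 in TTP-AA cells. Its log2 difference was -0.66 ± 0.03 (counting SE) in TTP-AA against TTP and 0.40 ± 0.03 in TTP against GFP. Ttc37, a scaffold of the SKI complex that feeds mRNA into the cytoplasmic exosome, had levels of 276, 267 and 173 in the same order. It was at -0.62 ± 0.07 in TTP-AA against TTP and at -0.67 ± 0.07 in TTP-AA against GFP. The other SKI subunits were closer to 0, with Skiv2l at -0.26 ± 0.06 and Wdr61 at -0.10 ± 0.03 in TTP-AA against TTP. Pabpn1, the nuclear poly(A)-binding protein, had levels of 98.5, 147.7 and 109 and was at 0.58 ± 0.11 in TTP against GFP cells. Eif4e2, which encodes 4EHP, the partner of GIGYF2, was at -0.05 ± 0.03, 0.05 ± 0.03 and 0.00 ± 0.03 in TTP-AA against TTP, TTP against GFP and TTP-AA against GFP. The paralogs of Tnrc6a differed among themselves in TTP-AA against TTP, at -0.46 ± 0.06 for Tnrc6b and 0.06 ± 0.12 for Tnrc6c, beside -0.04 ± 0.07 for Tnrc6a.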
